A study of Mus musculus with 6 samples.

Results

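The growth factors pleiotrophin, midkine and hepatocyte growth factor, the HGF receptor Met, and the neurotrophic factors and receptors Bdnf, Gdnf, Ntf3, Ngfr and Ntrk2 were followed in RNAseq of immortalized mouse pancreatic fibroblasts. The list of 9 genes was chosen on a measured value of these same libraries, the large Ptn difference between the groups, so what follows for its members is a description without a test. Of the 9 genes, 5 (Ptn, Hgf, Met, Bdnf and Gdnf) were found by symbol among the 14831 genes listed in the count table. Mdk was found by its Ensembl identifier alone, because its row carries no symbol. Ntf3, Ngfr and Ntrk2 have no row in the counts used here and were not analysed. The filter on low counts passed 5 of the 6 members with a row and left Mdk out.

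The 6 libraries came from fibroblasts outgrown from the adult pancreas of mice of mixed strain with floxed Gli alleles, immortalized in culture. The 3 libraries labelled WT are controls, which by the study's methods received Ad5 CMV-eGFP and Lenti dsRed. The 3 labelled Gli2-/-;Gli3-/- received Ad5 CMV-eGFP and Ad5 CMV-Cre, so that both groups carry the GFP adenovirus, and infected cells were isolated by flow cytometry. Each library was made from polyadenylated RNA of its own confluent well in serum-containing medium. The CMV promoter is active in most cell types, so deletion by this Cre is not limited to one cell type, and no age beyond adult is given for the donor mice in the sources used here. The wells are replicates of cultured cells and not of mice, so the p-values measure the spread between wells of culture and library preparation. The groups differ in the viruses received and in the infected cells isolated. Differences between the lines or in virus thus cannot be told apart from those of genotype.

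Pleiotrophin (Ptn) and midkine (Mdk) form a family of heparin-binding growth factors that signal through the receptor phosphatase PTPRZ1, the kinase ALK, syndecans and integrins, and both are known from development, nerve growth and tissue repair. HGF is a mesenchymal ligand, secreted as an inactive precursor and cut by serine proteases, that acts on epithelial cells through the receptor tyrosine kinase MET. The neurotrophins BDNF, NT3 (Ntf3) and NT4 (Ntf5) bind Trk kinases and the shared receptor p75 (Ngfr), while GDNF acts through a GFRα co-receptor and the kinase RET. Mesenchymal cells are a known source of HGF for epithelium and of GDNF for growing nerves.

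The targeted genes go against the labels. Gli2 counts were 809, 944 and 868 in labelled WT, below the 1932, 2316 and 1926 of labelled KO. Gli3 had 392, 416 and 398 counts against 1434, 1637 and 1404. Both were therefore higher in every library labelled KO. The log2 fold change of Gli2 was 1.05 (SE 0.04) and that of Gli3 was 1.71 (SE 0.05), with adjusted p = 8.01e-10 and 2.10e-11 in edgeR (quasi-likelihood test, Benjamini-Hochberg adjustment). Counts over a whole gene do not show whether a floxed exon is present, and by the study's methods the infected lines were screened for recombination at the RNA and protein level. For this reason the text names groups by their labels, and every direction below rests on them.

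Depth ran from 31728420 to 33905521 counts on genes in labelled WT and from 32781730 to 41035931 in labelled KO. At this depth, 3 counts are between 0.072 and 0.0957 CPM, counts scaled to 1000000 of a library's total after TMM scaling. Fibroblast markers were abundant, with Col1a1, a fibrillar collagen chain, at a mean of 15980 CPM in labelled WT and 16111 CPM in labelled KO. The defining fibroblast markers Pdpn and Fap have no row, and Thy1 had at most 19 counts in any library.

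The members lie on 6 chromosomes in GENCODE M21 (GRCm38), counting the 3 without a row. Ptn is at chr6:36714929-36810220 on the minus strand, with 5 merged exons that span 3433 bases. Met is on the same chromosome at chr6:17463800-17573980 on the plus strand, with 22 merged exons over 7679 bases. Hgf is at chr5:16553495-16620152 and Gdnf at chr15:7810846-7837575, both on the plus strand. Mdk at chr2:91929805-91932297 (minus strand) and Bdnf at chr2:109674700-109727007 (plus strand) share chromosome 2. Bdnf shares 896 exon bases with Gm45346 on the opposite strand and Hgf shares 484 with Gm43489 on its own strand; neither of these has a row, and whether counting used strand is not given in the sources used here.

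The promoters of the 3 members with the largest differences, Ptn, Gdnf and Hgf, are printed for their start regions, with that of Met, a member with a small difference, beside them. Each is the RefSeq window in GRCm38.p6 from 250 bases before to 50 bases after the start site, 5′ to 3′ on the gene's strand. Capitals mark letters that match CCACCC, the core of the sequence that GLI factors bind, or the AP-1 sequence TGACTCA, on either strand. The windows are chr6:36810130-36810429 for Ptn, chr15:7809798-7810097 for the first of 2 Gdnf windows, chr5:16553245-16553544 for the first of 2 Hgf windows and chr6:17463707-17464006 for Met.
Ptn: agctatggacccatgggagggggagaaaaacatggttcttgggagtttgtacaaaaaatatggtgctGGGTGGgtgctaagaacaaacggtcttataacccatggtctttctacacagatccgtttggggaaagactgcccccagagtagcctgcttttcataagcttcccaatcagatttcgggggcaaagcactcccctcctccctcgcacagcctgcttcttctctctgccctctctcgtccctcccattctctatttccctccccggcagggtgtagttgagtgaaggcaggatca
Gdnf: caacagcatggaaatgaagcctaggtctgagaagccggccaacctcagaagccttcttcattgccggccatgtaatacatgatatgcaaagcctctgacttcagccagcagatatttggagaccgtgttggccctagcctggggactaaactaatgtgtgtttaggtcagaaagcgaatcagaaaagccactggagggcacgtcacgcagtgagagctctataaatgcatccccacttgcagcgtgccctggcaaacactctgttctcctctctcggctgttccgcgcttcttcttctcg
Hgf: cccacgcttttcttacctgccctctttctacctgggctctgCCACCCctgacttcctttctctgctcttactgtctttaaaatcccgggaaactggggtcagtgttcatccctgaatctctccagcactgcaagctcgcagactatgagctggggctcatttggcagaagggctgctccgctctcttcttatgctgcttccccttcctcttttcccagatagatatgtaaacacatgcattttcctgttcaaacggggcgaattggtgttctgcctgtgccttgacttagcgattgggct
Met: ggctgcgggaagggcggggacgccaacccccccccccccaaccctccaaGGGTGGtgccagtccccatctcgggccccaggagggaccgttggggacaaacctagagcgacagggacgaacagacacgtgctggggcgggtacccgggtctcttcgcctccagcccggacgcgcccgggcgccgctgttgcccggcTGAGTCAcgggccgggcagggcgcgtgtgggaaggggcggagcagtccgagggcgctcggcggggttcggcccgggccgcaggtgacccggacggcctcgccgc
Among the printed windows, that of Met stood apart in base composition, with 75.7% GC and 34 CpG dinucleotides. The others had 52.0% and 6 in Ptn, 51.7% and 11 in Gdnf and 51.3% and 7 in Hgf. Bdnf, the other member with a small difference, has 7 windows, with 38.7% to 58.0% GC and 2 to 13 CpG dinucleotides. The printed Gdnf window ends before the GENCODE start of the gene at chr15:7810846. The second Gdnf window, inside the gene, has 51.7% GC and 22 CpG dinucleotides. The medians over all 32851 promoter windows were 52.7% and 7, so that Ptn, Gdnf and Hgf have starts near the middle for GC, while the Met window was above 96.7% of all windows in GC. The CCACCC core was found in the printed Ptn, Hgf and Met windows and not in the printed Gdnf window, and in 31.5% of all windows. Among the member windows not printed, it was in some of those of Bdnf and Ntf3 and in that of Ngfr. The second Hgf and Gdnf windows and the Ntrk2 window lacked it. The longer GLI sequence GACCACCCA, which holds that core, was in none of the 17 windows of the 8 members that have one, and in 0.253% of all windows. Met alone among the members held TGACTCA, found in 5.2% of all windows. Such a match describes letters in a window and is not a measured binding site.

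Ptn was the member with the largest difference. Its counts were 307, 395 and 392 in labelled WT, against 4227, 4829 and 4179 in labelled KO. Scaled for library size, these are 9.8, 11.8 and 12.3 CPM against 119, 116 and 127 CPM. The groups do not overlap, and the lowest library labelled KO lies far above the highest labelled WT. The mean level went from 11.3 ± 1.32 CPM (SD, n = 3) to 121 ± 5.46 CPM (SD, n = 3), a log2 fold change of 3.41 (SE 0.06), or 10.7-fold. Ranked by log2 fold change, Ptn stood at place 188 from the top of the 14289 genes tested. In bulk RNA, more cells that make a transcript and more transcript per cell cannot be told apart, for Ptn and for every gene below.

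Midkine, the other member of the pleiotrophin family, was near the floor in all libraries. Mdk counts were 5, 2 and 5 in labelled WT, against 6, 17 and 3 in labelled KO. The groups overlap, and 1 library labelled KO holds most of the counts of its group. The mean level was 0.125 ± 0.0568 CPM in labelled WT and 0.223 ± 0.165 CPM in labelled KO (SD, n = 3 each). The gene did not pass the filter and was not tested, so no difference between the groups is read from it. Per kb of exon, midkine was the lower of the pair in every library.

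Hgf was low in both groups. The 3 wells labelled WT gave 18, 19 and 20 counts and the 3 labelled KO gave 48, 68 and 52. These sets do not overlap, although no library holds more than 68 counts. The mean went from 0.589 ± 0.0323 CPM to 1.52 ± 0.146 CPM (SD, n = 3 each). This is 1.37 (SE 0.19) as a log2 fold change, or 2.58-fold. The spread between the wells labelled WT, a coefficient of variation of 5.49%, was below the 22.9% that counting alone gives at this depth, so the SD of so few wells understates the error of Hgf.

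Met, the receptor of HGF, was abundant by comparison. Its counts were 2527, 2825 and 2734 in labelled WT, against 3745, 4560 and 3888 in labelled KO. The groups do not overlap, but they lie close together. The mean went from 83.5 ± 2.6 CPM to 111 ± 6.16 CPM (SD, n = 3 each), which is 1.33-fold, or 0.41 (SE 0.04) on the log2 scale.

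Gdnf, the ligand of the GFRα and RET receptor complex, had the second largest difference among the members. The wells labelled WT gave 73, 74 and 63 counts and the wells labelled KO gave 442, 461 and 393. No library labelled WT reaches the lowest labelled KO. The mean went from 2.17 ± 0.181 CPM to 11.8 ± 0.714 CPM (SD, n = 3 each), which is 5.43-fold, or 2.44 (SE 0.10) on the log2 scale.

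Bdnf, the ligand of TrkB (Ntrk2) and p75, had the highest level of the neurotrophic factors among the members. The wells labelled WT gave 2489, 2414 and 2364 counts and the wells labelled KO gave 3520, 4194 and 3093. The groups do not overlap on the CPM scale, where the means were 75.2 ± 3.8 in labelled WT and 97.9 ± 3.71 in labelled KO (SD, n = 3 each). The log2 fold change was 0.38 (SE 0.04), or 1.3-fold, close to that of Met. Its own receptors could not be followed, since Ntrk2 and Ngfr have no row.

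**Figure D1:**
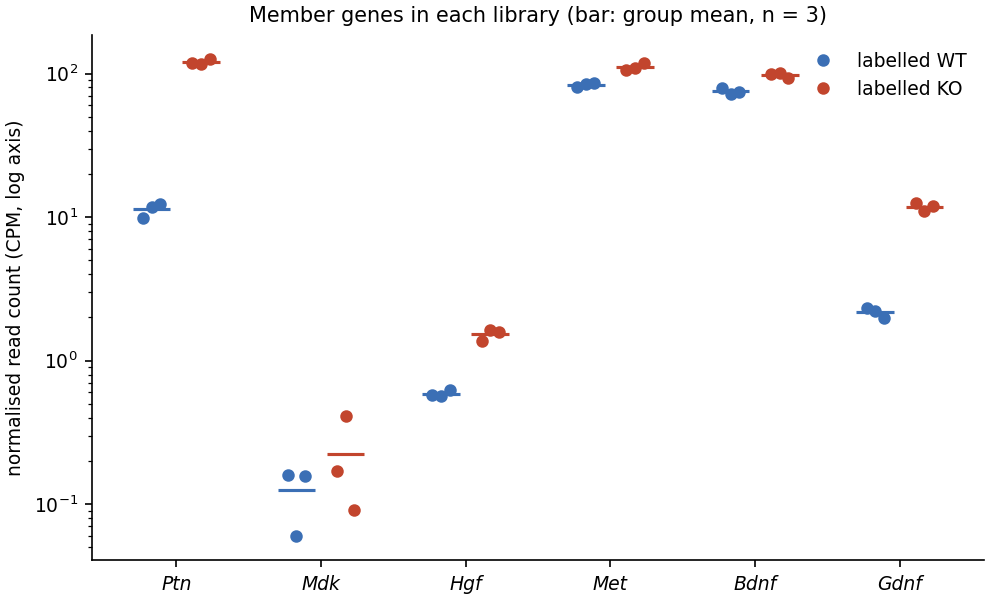
Normalised read count (CPM, log axis) of the 6 members with a row in each library, with labelled WT in blue, labelled KO in red and bars at the group means (n = 3). Ptn moves from a mean of 11.3 to 121 CPM, while the Mdk groups overlap. CPM is not adjusted for length, so heights of different genes are not to be compared here.

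A gene was called when its adjusted p was under 0.05 and its change at least 1.5-fold. By that limit 3 members (Ptn, Gdnf and Hgf) were called higher in labelled KO and 0 lower, where 11.6% of the genes tested were called higher, 6.1% lower and 17.7% in either direction. Met and Bdnf had an adjusted p under 0.05, as did 58.7% of all genes tested, with changes under 1.5-fold. In all 5 tested members every library labelled KO lay above every library labelled WT, an arrangement found in 32.9% of all genes tested. The median log2 fold change was 1.37 over the 5 members and 0.00 over all genes tested. The members were chosen with this contrast known, so nothing is read from these counts.

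Levels of different genes were compared per kb of merged exon. In labelled WT, Bdnf (12.1 ± 0.612 CPM per kb) was first, followed by Met (10.9 ± 0.338) and Ptn (3.29 ± 0.383). Gdnf (0.591 ± 0.0493), Mdk (0.0946 ± 0.0429) and Hgf (0.082 ± 0.0045) followed, and the values of Mdk and Hgf overlap. In labelled KO, Ptn was first at 35.1 ± 1.59 CPM per kb, with all 3 libraries above those of Bdnf (15.7 ± 0.596) and Met (14.5 ± 0.802). Bdnf and Met overlap there, since the lowest Bdnf library (15.1) is under the highest Met library (15.3). Among all genes tested, the level of Ptn per length was at percentile 40.9 in labelled WT and 91.0 in labelled KO, while that of Bdnf was at 71.3 and 78.3. Ptn was thus the member whose place among the genes moved furthest.

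**Figure D2:**
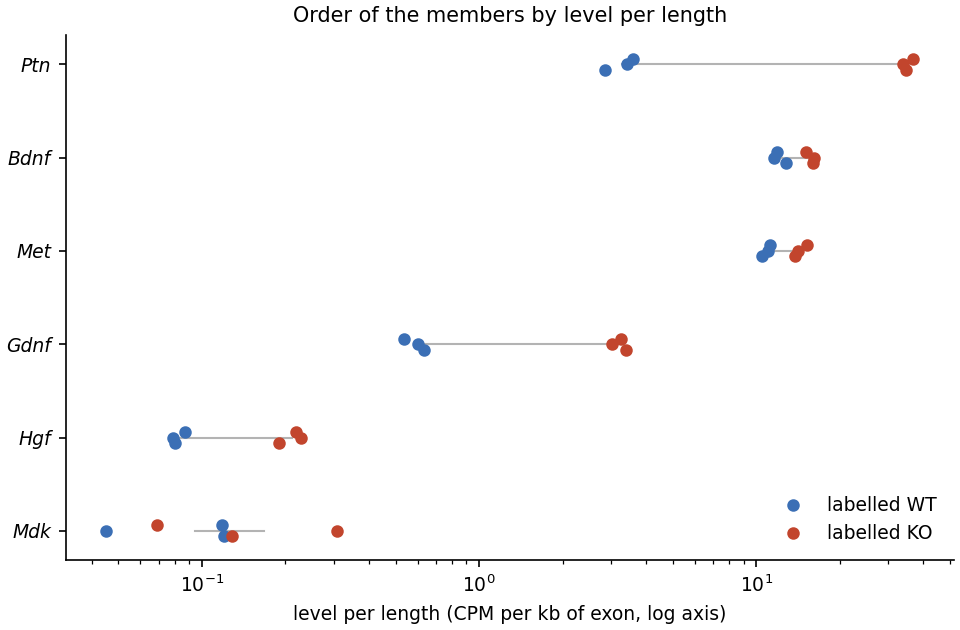
Level per kb of exon (CPM per kb, log axis) of each member in every library, labelled WT in blue and labelled KO in red, with a line joining the group means. Ptn goes from behind Bdnf and Met (3.29) to ahead of both (35.1), and Hgf and Mdk reach at most 0.308 in any library.

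Ratios within each library set the ligands against their receptors on the same per-length scale. Hgf was 0.00754 ± 0.000321 of Met in labelled WT and 0.0146 ± 0.00116 in labelled KO (SD, n = 3 each), so the receptor transcript exceeded that of its ligand in every library. Ptn was 27.1 ± 5.98 times Ptprz1 in labelled WT and 373 ± 66.9 times in labelled KO. Gdnf was 0.97 ± 0.0805 of Gfra1 in labelled WT and 2.46 ± 0.0396 in labelled KO.

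The genes around these members were read from 5 lists of receptors, activating proteases, adaptors and related ligands, none of which holds a member. Of 90 genes listed, 71 have a row and 70 were tested. In labelled KO 12 rose, 6 fell and 52 did not pass, which is 25.7% called against 17.7% of all genes tested. The median log2 fold change over the 70 genes was -0.05, against 0.00 over all genes tested, with genes on both sides of 0.

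**Figure D3:**
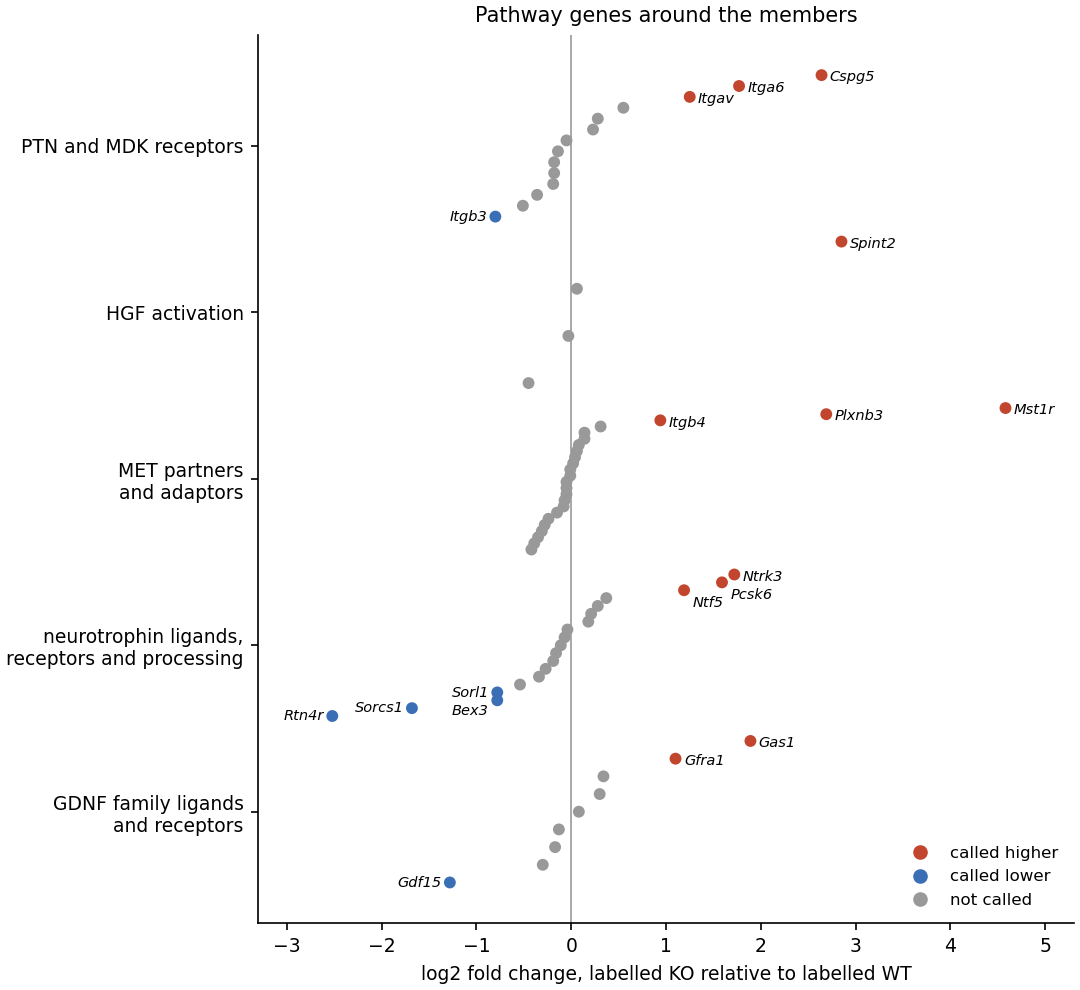
Fitted log2 fold change (labelled KO relative to labelled WT) of the 70 tested pathway genes, 1 point a gene, grouped by list; genes called higher are red, genes called lower blue and the others grey. Most points lie near 0, with Mst1r (4.58) and Rtn4r (-2.52) farthest to either side.

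Among receptors and binding partners of pleiotrophin and midkine, 14 of 17 have a row and were tested, 3 rose and 1 fell, with a median log2 fold change of -0.10. That is 28.6% called, against 17.7% of all genes tested. Ptprz1, the receptor phosphatase that binds pleiotrophin, had 59, 49 and 62 counts in labelled WT and 39, 61 and 51 in labelled KO. The groups overlap (log2 fold change -0.36, SE 0.18, edgeR adjusted p = 0.11), and Ptprz1 was not called. Sdc3, the syndecan known as a pleiotrophin receptor in neurons, went from 35.0 ± 2.17 to 42.4 ± 2.42 CPM (SD, n = 3 each) and stayed under the fold limit (log2 fold change 0.28, edgeR adjusted p = 7.12e-04). Itgav, the αv integrin chain, rose from 270 ± 0.914 to 641 ± 13.5 CPM (log2 fold change 1.25, edgeR adjusted p = 2.48e-12), while Itgb3, the β3 chain it pairs with, fell from 43.7 ± 1.77 to 25.1 ± 0.93 CPM (log2 fold change -0.80, edgeR adjusted p = 1.50e-08). The paired chains of this integrin thus went in opposite directions. Itga6, a laminin receptor chain, rose from 2.53 to 8.65 CPM (log2 fold change 1.77, edgeR adjusted p = 5.63e-09). Cspg5, a membrane proteoglycan under 1 CPM and named only to complete the count, had 5, 2 and 5 counts in labelled WT and 33, 32 and 22 in labelled KO (log2 fold change 2.64, edgeR adjusted p = 3.69e-05). The kinases Alk and Ltk and the integrin chain Itga4 have no row.

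Few genes that activate HGF could be read, since 4 of 12 have a row. Of these 1 rose and 0 fell, 25.0% called against 17.7% of all genes tested. Spint2, a membrane inhibitor of the proteases that cut pro-HGF, had 6, 15 and 6 counts in labelled WT and 79, 86 and 59 in labelled KO. The groups do not overlap (log2 fold change 2.85, SE 0.27, edgeR adjusted p = 1.45e-06). Hgfac, the HGF activator protease, had 11, 14 and 16 counts against 9, 12 and 13, with overlapping groups (log2 fold change -0.45, edgeR adjusted p = 0.231). The plasminogen activators Plau (13.0 to 13.6 CPM) and Plat (101 to 98.5 CPM), named after their values were seen, were not called. Spint1, the related inhibitor, has no row, nor do the proteases St14, Hpn, Plg, Klkb1, F11 and F12 and the inhibitor Serpina5.

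Partners, adaptors and phosphatases of MET were the list with the fewest calls by share. Of 24 genes tested, 3 rose and 0 fell, 12.5% against 17.7% of all genes tested. Mst1r encodes RON, the receptor tyrosine kinase closest to MET. It had 6, 7 and 4 counts in labelled WT and 152, 170 and 148 in labelled KO (log2 fold change 4.58, SE 0.20, edgeR adjusted p = 1.05e-09). It thus rose from near the floor, to a mean of 4.28 CPM, while Met itself was at 111 CPM. Plxnb3, a plexin that can associate with MET, had 13, 17 and 23 counts against 144, 129 and 117 (log2 fold change 2.69, edgeR adjusted p = 1.79e-07). Itgb4, the β4 integrin chain, under 1 CPM and named only to complete the count, had 19, 15 and 12 counts against 23, 42 and 36 (log2 fold change 0.94, edgeR adjusted p = 0.0108). The 21 others, which include the docking protein Gab1 (log2 fold change 0.31) and the adaptor Grb2 (-0.01), had log2 fold changes between -0.42 and 0.31. Mst1, the ligand of RON, has no row.

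Neurotrophin ligands, receptors and processing genes moved in both directions. Of 22 listed, 19 were tested, 3 rose and 4 fell, 36.8% against 17.7% of all genes tested. Ntf5, which encodes the ligand NT4, had 28, 32 and 24 counts in labelled WT and 59, 87 and 72 in labelled KO (log2 fold change 1.19, edgeR adjusted p = 1.14e-04). The groups do not overlap. Ntrk3, the kinase receptor TrkC, rose from 2.76 ± 0.478 to 9.1 ± 1.26 CPM (SD, n = 3 each; log2 fold change 1.72, edgeR adjusted p = 2.81e-07). Pcsk6, a proprotein convertase, rose from 109 ± 6.21 to 330 ± 16.0 CPM (log2 fold change 1.59, edgeR adjusted p = 1.92e-11).

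The 4 that fell in this list are 2 sorting receptors and 2 partners of p75. Sorcs1, a sorting receptor of the VPS10 family, fell from 166 ± 10.8 to 51.9 ± 2.4 CPM (log2 fold change -1.68, edgeR adjusted p = 2.39e-11). Its relative Sorl1 fell from 28.1 ± 3.72 to 16.4 ± 1.36 CPM (log2 fold change -0.78, edgeR adjusted p = 6.80e-06). Sort1, sortilin, which binds proneurotrophins together with p75, went from 98.4 ± 4.55 to 81.5 ± 1.47 CPM and did not reach the fold limit (log2 fold change -0.27, edgeR adjusted p = 4.70e-05). Of the VPS10 receptors, then, Sorcs1 had the largest decrease of the ones named. Rtn4r, the Nogo receptor that uses p75 as a co-receptor, had 136, 139 and 105 counts in labelled WT and 28, 35 and 12 in labelled KO (log2 fold change -2.52, edgeR adjusted p = 6.35e-07). Bex3, which binds the p75 intracellular domain, went from 150 to 87.4 CPM, with the same log2 fold change as Sorl1 (-0.78, edgeR adjusted p = 4.99e-09).

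In the GDNF family 9 of 14 have a row and were tested, 2 rose and 1 fell, with a median log2 fold change of 0.08. That is 33.3% called, against 17.7% of all genes tested. Gfra1, the GDNF co-receptor, had 103, 123 and 98 counts in labelled WT and 266, 285 and 236 in labelled KO (log2 fold change 1.10, SE 0.10, edgeR adjusted p = 9.04e-07). Gas1, a membrane protein related in sequence to the GFRα receptors and also a hedgehog co-receptor, rose from 23.1 ± 0.291 to 85.7 ± 7.01 CPM (log2 fold change 1.89, edgeR adjusted p = 2.65e-11). Gdnf, Gfra1 and Gas1 were thus higher in labelled KO, while Ret, the kinase that carries the GDNF signal, has no row. Other genes of this list, named after their values were seen, did not reach the fold limit. Gfra2 went from 10.1 to 12.9 CPM (log2 fold change 0.34), and Ncam1 was slightly lower (-0.17). For Gfra4 (log2 fold change -0.30, SE 0.15, edgeR adjusted p = 0.106) no difference is read. Gdf15, a distant relative under 1 CPM and named only to complete the count, had 17, 25 and 16 counts against 7, 15 and 5 (log2 fold change -1.28, edgeR adjusted p = 0.00663). Artn, Pspn, Gfra3 and Gfral have no row. Gas1 shares 589 exon bases with Gm48488 on the opposite strand, and Itgav, Itgb4, Gfra1, Sdc3, Sort1, Sorl1 and Sorcs1 also share exon bases with an annotated gene on the other strand, whose reads cannot be told apart without strand. The same holds for Gab1 and Ncam1 and, among genes named below, for Chrm2, Kif18a, Krt7, Pdgfra and St7.

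The genes next to each member, were taken by position alone and read in the same fit. Within 1000 kb of Ptn, 4 genes are listed, of which 3 rose and 0 fell. Over all genes tested, 11.6% were called higher and 6.1% lower, and from 4 genes no regional pattern is read. Chrm2, which encodes a muscarinic acetylcholine receptor and lies 186.5 kb away, had 0, 1 and 0 counts in labelled WT and 167, 233 and 198 in labelled KO. It was at least 58.4-fold higher in labelled KO, taken against a floor of 3 counts in each library labelled WT (edgeR adjusted p = 7.46e-10). Dgki, a diacylglycerol kinase gene 35.8 kb from Ptn, had 19, 27 and 29 counts against 60, 57 and 37 (log2 fold change 0.85, edgeR adjusted p = 0.00548). Creb3l2, a transcription factor gene 517 kb away, rose from 208 ± 7.6 to 333 ± 7.8 CPM (SD, n = 3 each; log2 fold change 0.68, edgeR adjusted p = 3.71e-09). The nearest listed gene on either side of Ptn was thus higher in labelled KO. The fourth, Atp6v0c-ps2, at 995.9 kb, was not called (log2 fold change -0.26).

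The same windows were read around the other members. Near Gdnf 1 of 7 rose, the glutamate transporter gene Slc1a3 at 796.5 kb (log2 fold change 1.83, edgeR adjusted p = 2.52e-11), while Wdr70 at 35.5 kb, the nearest, was not called (0.26). Near Hgf 0 of 2 rose and 1 fell, the semaphorin gene Sema3c at 954.1 kb (log2 fold change -0.63, edgeR adjusted p = 6.35e-09). Near Met 2 of 6 rose, Tes (0.63) and Gm4876 (0.90), which share 144 exon bases on opposite strands, and the 4 genes closer to Met, Cav1, Cav2, Capza2 and St7, were not called. Near Bdnf 7 of 8 were tested, of which Kif18a (log2 fold change 1.11) and Fibin (at least 6.87-fold) rose and Lgr4 (-1.23) fell. Near Mdk 30 of 31 were tested, 0 rose and 5 fell. For these windows too, the shares over all genes tested were 11.6% higher and 6.1% lower.

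**Figure D4:**
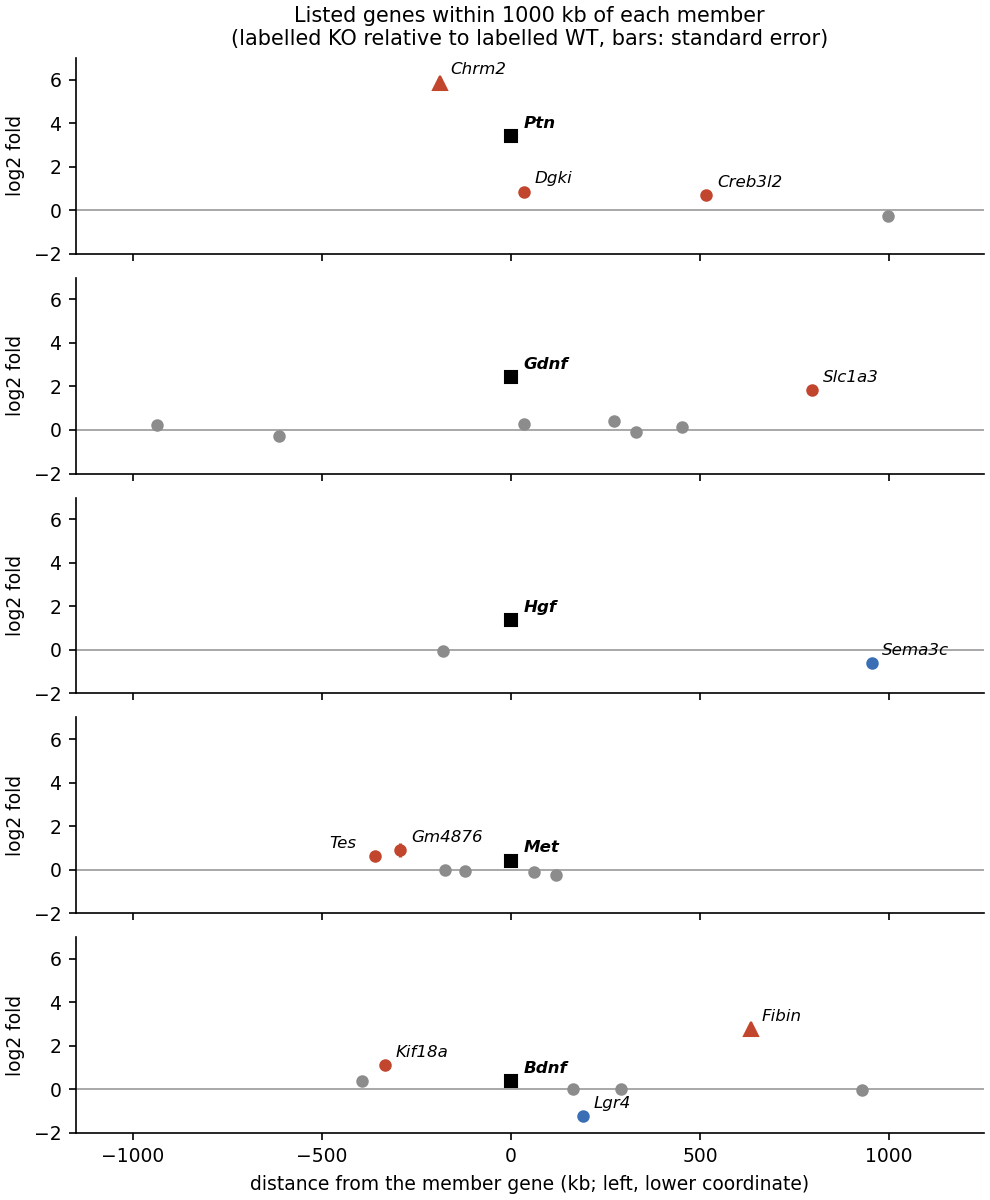
Fitted log2 fold change (labelled KO relative to labelled WT) of genes within 1000 kb of Ptn, Gdnf, Hgf, Met and Bdnf by distance in kb from the member, drawn as a black square; bars are standard errors, red and blue mark genes called higher and lower, and triangles are lower bounds. Chrm2 and Dgki on either side of Ptn both lie above 0, while Wdr70 (0.26) beside Gdnf is not called.

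Other genes with a profile like that of a member were named by the root mean square difference between the deposited log2 CPM profiles over the 6 libraries, each centred on its own mean, among 14161 genes. With 2 groups this measure is led by the size of the difference between them, and it says nothing of shared control. Closest to Ptn were Foxp2, a transcription factor gene (difference 0.0862 log2 units, log2 fold change 3.36), Ltbp4 (0.141, log2 fold change 3.60), Fam129a (0.143), Card10 (0.147) and Smoc2 (0.148, log2 fold change 3.20). Ltbp4 and Smoc2 encode secreted matrix proteins, and at 374 CPM in labelled KO Ltbp4 was the most abundant of these 5 on the CPM scale, which is not adjusted for length. Closest to Gdnf were Krt7, a simple-epithelial keratin gene (0.0698, log2 fold change 2.40), Tgfbi (0.0726) and Sema3g (0.079). Closest to Hgf were Plcxd2 (0.0521), Dlc1 (0.0658) and Akap12 (0.0694).

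Markers of other cell types moved between the same groups, where 11.6% of all genes tested were called higher and 6.1% lower. All 4 mesothelial markers with a row rose, and their summed level went from between 21.5 and 24.4 CPM in labelled WT to 267 CPM in each library labelled KO. Msln, the mesothelial surface protein mesothelin, had 77, 91 and 62 counts in labelled WT and 5949, 6904 and 5392 in labelled KO. The fifth, Krt14, has no row. Of 8 fibroblast markers with a row, 7 were tested, 0 rose and 4 (Col3a1, Pdgfra, Pdgfrb and Dcn) fell. Col1a1 (log2 fold change 0.01), Col1a2 (-0.19) and Vim (-0.13) were not called. Thy1, not tested, went the other way, with 4, 1 and 0 counts in labelled WT and 19, 15 and 9 in labelled KO. The summed level went from between 44817 and 47230 CPM to between 36778 and 38528 CPM, and Col1a1, Col1a2 and Col3a1 make up most of it. The part of the mesothelial and fibroblast markers in the values of Ptn, Gdnf and Hgf was not tested.

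Markers of glia, neurons and epithelium were read in the same way. For Schwann cells 5 of 9 markers have a row and 1, Erbb3, rose, with a summed level between 55.6 and 55.9 CPM in labelled WT and between 41.9 and 42.7 CPM in labelled KO; Mbp makes up most of it and the defining gene Sox10 has no row. For neurons 2 of 6 have a row and 1, Tubb3, rose, with sums between 3.82 and 5.58 CPM in labelled WT and of at least 9.21 CPM in labelled KO. For epithelium 4 of 8 have a row and 2, Krt7 and Cdh1, rose, with sums between 12.8 and 13.8 CPM and between 29.5 and 30.4 CPM, while Epcam has no row. Krt7 went from 4.38 to 23.1 CPM, and Cdh1 stayed under 1 CPM in every library. Sox9 went the other way, from 8.51 to 6.03 CPM, and did not reach the fold limit (log2 fold change -0.50). Macrophage markers (3 of 6 with a row) and the single endothelial marker with a row, Vwf, were not called. The single stellate marker with a row, Gfap, was not tested. Their part in the members' values was not tested.

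**Figure D5:**
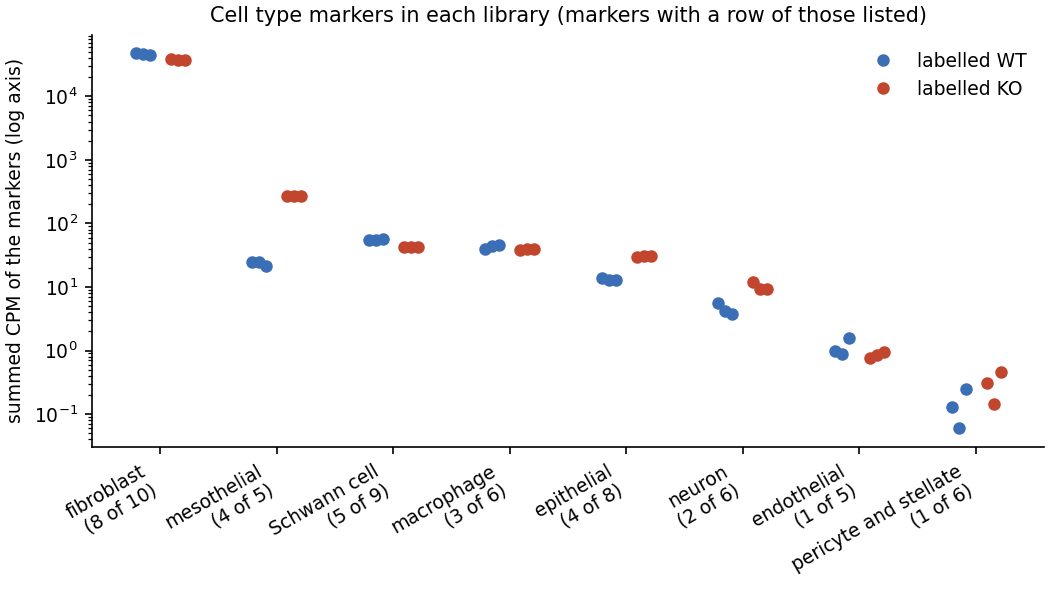
Summed CPM (log axis) of the markers of 8 cell types in each library, labelled WT in blue and labelled KO in red, with the number of markers that have a row of those listed under each name. The mesothelial sum is 267 CPM in the libraries labelled KO against at most 24.4 CPM in those labelled WT, and the fibroblast sum is at least 36778 CPM in all 6.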

How the data were processed

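Libraries were prepared from polyadenylated RNA with the NEB ultra 2 kit. The authors deposited a table of read counts per gene with no normalization. A second deposited table holds log2 CPM as limma's voom writes them. The submitters' processing notes name STAR 2.7.2b, featureCounts, limma and the build GRCm38.p6, and the strand setting is not given in the sources used here. The lowest total over the 6 libraries of any gene in the table is 20 counts, so genes below that are not listed, and 1165 rows carry no symbol.

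Groups were taken from the sample labels. Counts of 14831 genes were scaled by TMM and filtered by filterByExpr in edgeR 4.0.16 (R 4.3.3), which left 14289 genes, and tested with the quasi-likelihood test; p-values were adjusted by Benjamini-Hochberg over all of these. A gene was called at an adjusted p under 0.05 and at least 1.5-fold. CPM are counts per 1000000 of the TMM-scaled library size, and levels between genes are CPM per kb of merged GENCODE M21 exon, to which 14822 identifiers matched. All 6 libraries were kept as separate replicates, since pairs within a group differed by more than sampling noise (chi-square per degree of freedom 2.52 to 7.82). The method was tested on simulated counts. The members and the lists were chosen with earlier results of these data known. Named pathway genes are up to 3 called in each direction per list at 1 CPM or more in the higher group, with 11 receptors, activators and inhibitors named whatever they did. Some genes of the neurotrophin list are not reported here. The floors cover counting error only, and reads carry no molecular identifiers. Standard errors come from the quasi-likelihood fit and include the spread between wells. The alternatives were RLE and total-count scaling, no filter, a minimum of 10 counts, DESeq2 1.42.0, limma 3.58.1 on the deposited log2 values, no fold limit, and leaving out each library.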

Additional observations from a re-analysis of the deposited data

How the results depend on the processing

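Under the 12 alternatives fitted per gene, the pathway genes named by the rule, Bex3 not included, kept their direction and their side of the limits. The tested members kept their direction and moved by less than the spread between wells: the log2 fold change of Ptn lay between 3.32 and 3.48, of Gdnf between 2.38 and 2.49, of Hgf between 1.30 and 1.44, of Met between 0.37 and 0.44 and of Bdnf between 0.35 and 0.42. Mdk enters the fit without the filter alone, where its log2 fold change was 0.90. With no fold limit 8391 genes were called (4277 higher, 4114 lower), among them 46 pathway genes (23 higher, 23 lower), against 2531 and 18. Leaving out each library in turn gave between 2437 and 2546 calls (1587 to 1674 higher, 831 to 905 lower), between 18 and 19 pathway genes (12 higher, 6 to 7 lower), and log2 fold changes between 1.02 and 1.08 for Gli2 and between 1.68 and 1.73 for Gli3. With the fold limit kept, the share of calls that were higher was between 64.5% and 68.9% (65.6% as reported), and no scaling moved the median of all genes by more than 0.037. No paired analysis was possible because the labels give the wells no replicate numbers shared between groups. Counts are lowest for Mdk and Hgf, and the genes without a row were not analysed here.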
